A study of Mus musculus with 12 samples.

Results

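The receptors for glutamate and GABA, the main excitatory and inhibitory transmitters of the retina, are encoded by a set of gene families of which 35 genes are described here, 21 for glutamate receptors and 14 for GABA receptors, of 21938 protein-coding genes in GENCODE M21. They were chosen by gene family and not by any measured value. For each gene, every differentially methylated region (DMR) that overlapped the gene with 5 kb on each side, here called its locus, was taken from both lists that the authors called on the mm10 genome. The genes were Gria1, Gria2 and Gria4 (AMPA receptors), Grik2, Grik3, Grik4 and Grik5 (kainate receptors), Grin1, Grin2a, Grin2b, Grin2c, Grin2d, Grin3a and Grin3b (NMDA receptors), Grid1 (delta receptor), Grm2, Grm3, Grm4, Grm5, Grm7 and Grm8 (metabotropic glutamate receptors), Gabra2, Gabra4, Gabra5 and Gabra6 (GABA-A alpha subunits), Gabrb1, Gabrb2, Gabrg1, Gabrg3 and Gabrd (GABA-A beta, gamma and delta subunits), Gabrr1, Gabrr2 and Gabrr3 (GABA-A rho subunits) and Gabbr1 and Gabbr2 (GABA-B receptors).

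Whole retinas of mice at postnatal day 21 were compared between 2 groups. Cre- controls, labelled as genotype WT on strain C57 BL/6J, came from breeders without Cre, and whether they carried floxed Tet alleles was not given in the sources used here. Tet tcKO retinas carried loxP-flanked alleles of Tet1, Tet2 and Tet3 and the Chx10-Cre-GFP transgene, which is active in retinal progenitor cells and mosaic, and whose carriers were intercrossed by the authors to limit the mosaicism. Per the study's methods, each sample pooled the retinas of 2 animals. Whole-genome bisulfite sequencing (WGBS), which reads 5-methylcytosine (5mC) and 5-hydroxymethylcytosine (5hmC) together, and bACE-seq, which reads 5hmC alone, were each run on 3 libraries per genotype, which makes 12 libraries. The lists give the mean of each group alone, without depth or values per library, so levels carry no error and no test between genes could be made. Every level below is the authors' group mean over the CpGs of a region. A region is called a WGBS gain or loss, or a 5hmC gain or loss, by the sign of the Tet tcKO mean minus the Cre- mean. Deletion of the Tet exons and the cell types of the tissue were not checked here, since the lists hold neither reads nor expression.

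TET enzymes oxidise 5mC to 5hmC, which is abundant in neurons, above all in the bodies of genes that neurons express. Ionotropic receptors are channels built of several subunits that open when the transmitter binds, whereas metabotropic glutamate receptors and GABA-B receptors act through G proteins. In the retina, photoreceptors and bipolar cells release glutamate onto AMPA, kainate, NMDA and metabotropic receptors, and horizontal and amacrine cells release GABA. The rho subunits form GABA channels with slow kinetics at the axon terminals of bipolar cells.

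The receptor loci held 649 WGBS gains and 8 WGBS losses, and 1927 5hmC losses and 1 5hmC gain. In the gains the WGBS level was 57.0% in Cre- against 73.1% in Tet tcKO, weighted by CpGs, a difference of 16.1 percentage points. Over all 191164 WGBS gains of the list the levels were 56.7% and 74.1%. In the 5hmC losses of the receptor loci the 5hmC level was 14.8% in Cre- against 3.51% in Tet tcKO, so that 23.7% of the Cre- level was kept, beside 24.0% over all 592697 5hmC losses. Cytosines that escape deamination count as 5hmC in both groups. For bACE-seq the paper estimates that about 2% of unmodified cytosines stayed unconverted. With 1 or 2 percentage points subtracted from both levels, 18.2% or 11.8% was kept, so the 23.7% depends on this background. Whole retina was sampled, and a different mixture of cells cannot be told apart from a different level per cell.

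Nearly every receptor locus held a region, as did most genes of the genome. A WGBS gain lay in 33 of 35 receptor loci (94.3%), beside 76.8% of all protein-coding genes and 99.1% of the 1642 genes at least as long as the median receptor gene (138.3 kb). Gabra6 and Gabrg1 were without a gain. A 5hmC loss lay in 34 loci (97.1%), beside 88.3% of all and 99.5% of the long genes. A WGBS loss lay in 7 loci (20.0%), beside 4.90% of all and 18.3% of the long genes, and a 5hmC gain in 1 locus (2.86%), beside 0.401% and 2.74%. No result about the receptors is read from these shares, since a locus holds a region more often the longer it is and the receptor genes range from 6.48 to 921.6 kb.

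What differed between the receptor genes was how much of the locus the regions covered. The median receptor locus had 1.87% of its bases in WGBS gains and 17.3% in 5hmC losses, whereas the medians of all protein-coding genes were 3.36% and 27.7% and those of the long genes 4.35% and 25.0%. Counted by CpGs in place of bases, the receptor medians were 5.45% and 34.1%, beside 6.18% and 37.2% for all genes and 9.25% and 40.9% for the long genes. The range was wide. In WGBS gains it ran from 0% (Gabra6, Gabrg1) to 19.0% (Gabrr2), and 17 genes lay above the median of all genes. In 5hmC losses it ran from 0% (Gabra6) to 68.8% (Grik3), and 14 genes lay above that median. By family, the kainate genes had the highest medians for both kinds of region (10.8% and 50.4%), followed in gains by rho (7.84%) and GABA-B (7.69%) and in 5hmC losses by GABA-B (44.2%) and rho (37.3%). The GABA-A alpha genes had the lowest (0.371% and 3.00%).

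**Figure D1:**
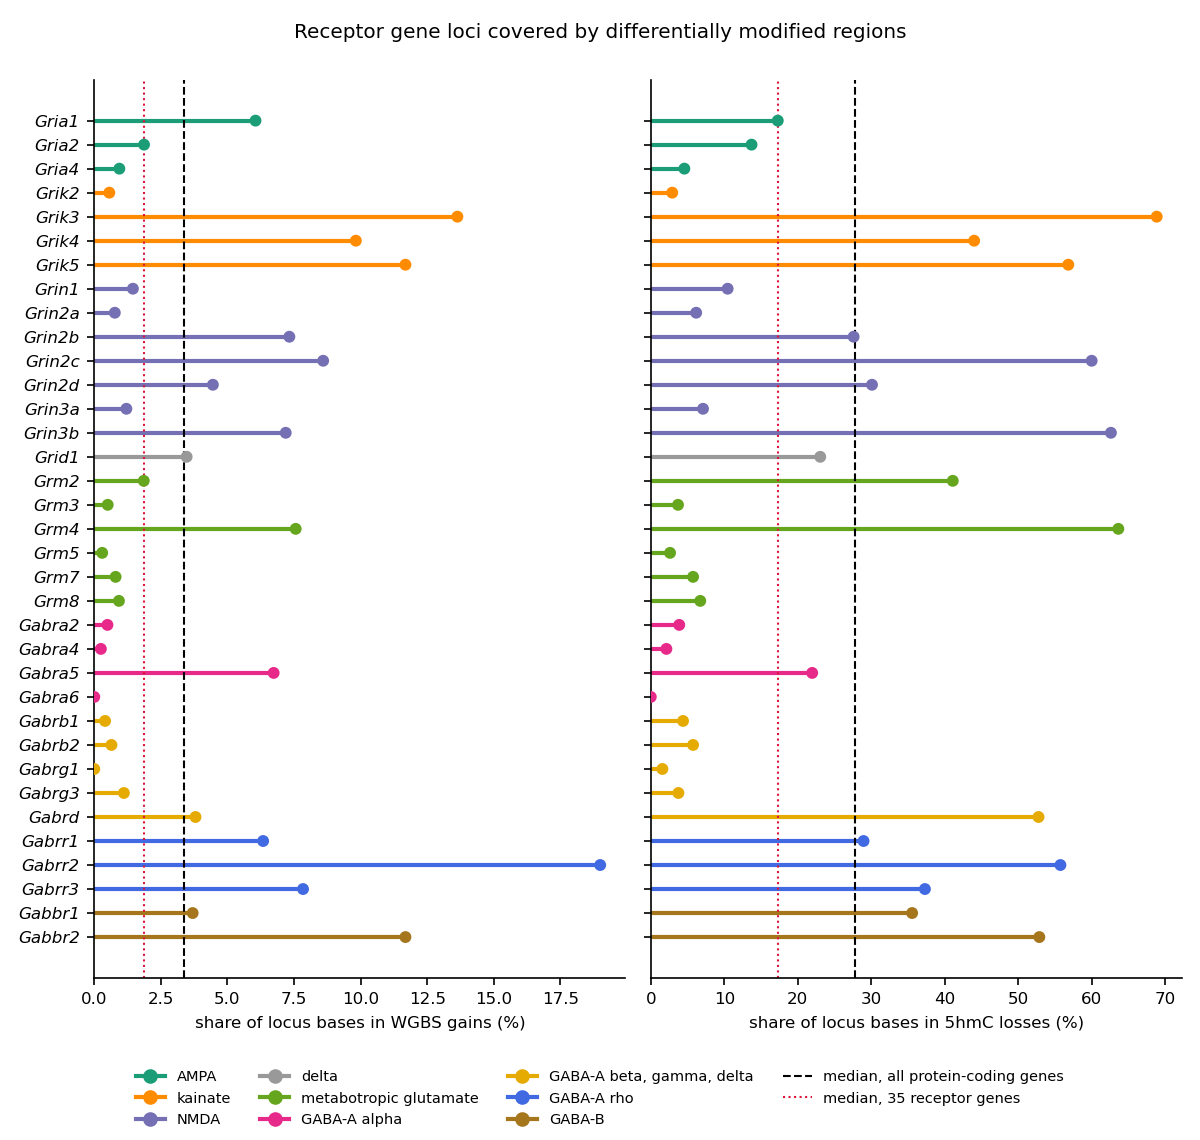
Share of each receptor locus (gene with 5 kb on each side) in WGBS gains (left) and in 5hmC losses (right), in percent of bases, with 1 point per gene coloured by family. The dashed line is the median of 21938 protein-coding genes (3.36% and 27.7%) and the dotted line that of the 35 receptor genes (1.87% and 17.3%), and Gabrr2 (19.0%) and Grik3 (68.8%) have the highest values.

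The loci most covered by 5hmC losses were also those most covered by WGBS gains. Across the 35 genes the Spearman correlation of both shares was 0.927 and the Pearson correlation 0.835, given as a description across genes that share the same libraries and are not independent replicates. Both shares were also higher where CpGs were denser (Spearman 0.741 with CpGs per kb for gains and 0.859 for 5hmC losses), and the caller needs several CpGs within a short distance, so the part of CpG density in these values was not tested. Correlations with gene length were -0.256 and -0.397. Of the 649 gains, 506 (78.0%) overlapped a 5hmC loss, beside 81.1% of all gains in the list. Of the 1927 5hmC losses, 467 (24.2%) overlapped a gain, beside 24.1% in the list.

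**Figure D2:**
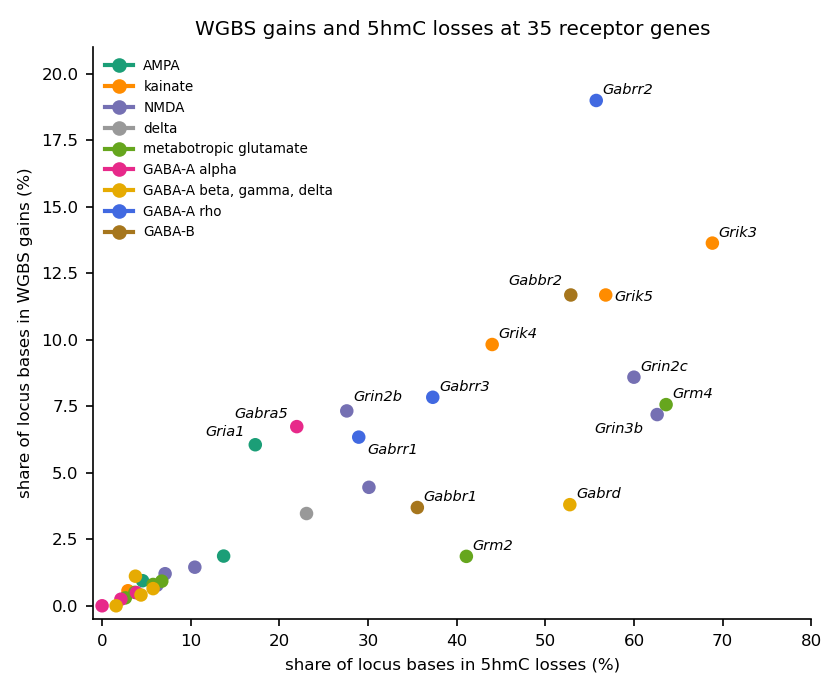
Share of locus bases in WGBS gains (vertical axis) against the share in 5hmC losses (horizontal axis), both in percent, for the 35 receptor genes coloured by family. Gabrr2 stands above the other genes at 19.0% in gains and 55.7% in 5hmC losses, whereas Grm2 has 41.1% in 5hmC losses and 1.86% in gains.

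Around the 5′ ends of the receptor genes, a promoter being the 2 kb on each side of the annotated 5′ end, 19 of 35 promoters (54.3%) overlapped a WGBS gain, beside 47.4% of all promoters and 56.6% of those of long genes. A 5hmC loss overlapped 30 promoters (85.7%), beside 78.2% and 85.7%. A WGBS loss overlapped 2 promoters (5.71%), those of Grik3 and Grik5, beside 1.34% and 1.40%. The 5′ end itself lay inside a gain in 2 genes (5.71%), Gabra5 and Gabrr1, beside 5.01% of all and 5.42% of the long genes. Ionotropic and metabotropic genes differed in the count of promoters with a gain. It was 18 of 27 for ionotropic receptors and 1 of 8 for metabotropic receptors, the latter being Gabbr1, and this difference was not tested. An overlap of 1 bp was enough to count, and the gain held 1 promoter CpG in Gabbr1 and 2 in Grik3. Averaged over the receptor genes, coverage by 5hmC losses was lowest from 500 to 999 bp past the 5′ end (5.65% of bases, 19.7% over all genes) and reached 41.7% from 2000 to 1501 bp before it (27.3% over all genes). Coverage by gains was highest from 2000 to 2499 bp past the 5′ end (18.9%, beside 10.3% over all genes).

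**Figure D3:**
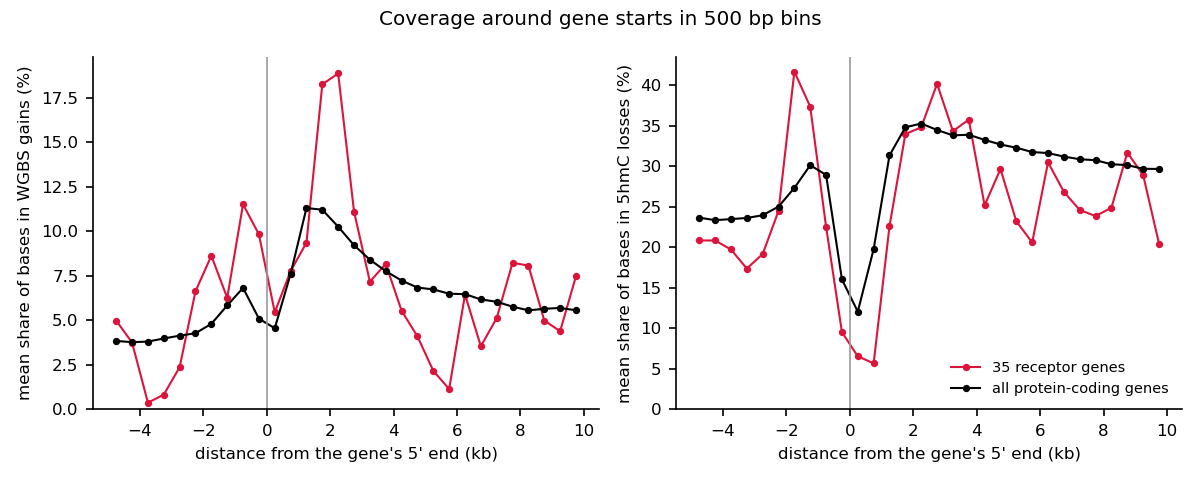
Mean share of bases in WGBS gains (left) and 5hmC losses (right), in percent, in bins of 500 bp by distance from the 5′ end in kb, positive into the gene, for the 35 receptor genes (red) and 21938 protein-coding genes (black). Both curves for 5hmC losses dip near the 5′ end, to 5.65% in the receptor genes, and the curve for gains in the receptor genes peaks at 18.9% near 2 kb.

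Within the genes, most regions lay in introns, which hold most of the bases. Of the 649 gains, 553 (85.2%) were intronic, 37 touched a coding exon alone, 5 a coding exon and a UTR, and 20 a UTR alone. Per base, however, coding exons were covered more than introns. They had 6.11% of their bases in gains and 37.1% in 5hmC losses, whereas introns had 2.97% and 15.1%. Coding exons held 36.7 CpGs per kb and introns 6.78. Counted by CpGs, the shares in gains were 10.7% and 8.72% and those in 5hmC losses 47.9% and 33.9%.

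The sequence before the 5′ end is shown for 3 genes, because the 5′ end of Gabra5 and of Gabrr1 lay within a WGBS gain and a gain ended shortly before the 5′ end of Gabrr3. The 250 bases before each annotated 5′ end are printed from the reference genome (GRCm38, mm10) on the strand of the gene, at chr7:57510060-57510309 (minus strand), chr4:33132271-33132520 and chr16:59407082-59407331 (plus strand), with CpGs in capitals. Gabrr3 was added after its values were seen.
Gabra5: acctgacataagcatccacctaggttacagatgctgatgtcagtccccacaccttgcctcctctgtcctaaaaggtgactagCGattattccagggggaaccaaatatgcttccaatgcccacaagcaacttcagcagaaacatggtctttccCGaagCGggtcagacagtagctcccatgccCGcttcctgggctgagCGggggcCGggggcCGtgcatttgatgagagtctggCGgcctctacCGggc
Gabrr1: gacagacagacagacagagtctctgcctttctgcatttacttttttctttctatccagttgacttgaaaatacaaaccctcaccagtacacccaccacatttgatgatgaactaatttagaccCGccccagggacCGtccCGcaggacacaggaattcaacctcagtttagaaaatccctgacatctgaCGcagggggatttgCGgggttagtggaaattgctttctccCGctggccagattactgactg
Gabrr3: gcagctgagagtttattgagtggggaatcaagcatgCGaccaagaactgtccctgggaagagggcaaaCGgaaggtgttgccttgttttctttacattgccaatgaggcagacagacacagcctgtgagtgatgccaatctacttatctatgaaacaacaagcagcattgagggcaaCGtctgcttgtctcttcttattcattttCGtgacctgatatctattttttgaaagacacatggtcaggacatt
They hold 9, 6 and 4 CpGs. Over 32851 promoters in the RefSeq table for this assembly the median in the same window was 6.

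The 3 AMPA receptor genes, whose products carry most fast excitatory transmission, had a median of 1.87% of bases in gains and 13.7% in 5hmC losses. All 3 had a gain in the promoter, beside 47.4% of all promoters. Gria1 (chr11:57011387-57330244), the highest of the family, had 42 gains on 6.05% of its bases and 106 5hmC losses on 17.3%. Its WGBS level in the gains was 60.2% in Cre- against 77.3% in Tet tcKO, and its 5hmC level in the losses 12.9% and 2.76%. In the promoter of Gria1 the levels were 47.5% and 68.9% over 12 CpGs in a gain upstream of the 5′ end. The strongest gain of the family, by the authors' area statistic, covered a coding exon of Gria1 (chr11:57316423-57318176, 35 CpGs, 53.0% against 71.6%), and the strongest 5hmC loss an intron of the same gene (chr11:57277751-57278711, 21 CpGs, 13.7% against 2.93%). The only 5hmC gain of any receptor locus also lay in Gria1, in an intron 6.35 kb past the 5′ end (chr11:57017436-57018045), where the 5hmC level over 19 CpGs was 18.9% in Cre- against 31.7% in Tet tcKO, and no WGBS region overlapped it.

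Gria4 (chr9:4417896-4796234) was the lowest AMPA gene, with 5 gains on 0.942% of its bases and 30 5hmC losses on 4.57%. The levels were 45.4% and 64.9% in the gains and 10.3% and 1.63% in the 5hmC losses. Its promoter held a gain of 18 CpGs in an intron (23.0% against 39.4%) and no 5hmC loss. A WGBS loss in another intron of Gria4 (chr9:4492555-4492998, 6 CpGs) fell by 2.73 percentage points, from 92.6% to 89.9%. Gria2, which sets the calcium permeability of AMPA channels, had 9 gains on 1.87% of its bases. In its promoter 8 of 107 CpGs lay in a gain, with 56.7% in Cre- against 78.0% in Tet tcKO.

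The kainate receptor genes were split. Grik3, Grik4 and Grik5 had 13.6%, 9.82% and 11.7% of their bases in gains and 68.8%, 44.0% and 56.8% in 5hmC losses, whereas Grik2 had 0.565% and 2.92%. All 4 promoters held a gain, beside 47.4% of all promoters. In that of Grik3 the gain held 2 of 259 CpGs. Grik3 (chr4:125490700-125714173) had more of its bases in gains than 90.0% of all protein-coding genes and more in 5hmC losses than 96.6%. Its 60 gains had levels of 58.7% and 76.3%, and its 110 5hmC losses 18.9% and 4.96%. The strongest 5hmC loss of the family was 8.66 kb long (chr4:125639151-125647812, 151 CpGs) and crossed a coding exon of Grik3, with 24.1% in Cre- against 6.46% in Tet tcKO. Grik2 (chr10:49094833-49788766), although 693.9 kb long, had 9 gains (63.9% against 83.6%) and 37 5hmC losses (13.6% against 2.49%). Of these gains, 2 lay in its promoter (60.8% against 80.5% over 14 CpGs).

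Grik5 (chr7:25009849-25072346), which encodes a subunit that needs other kainate subunits to form a channel, had 16 gains (33.5% against 48.6%) and 33 5hmC losses (17.5% against 4.56%). In the promoter of Grik5 the gains had 58.8% and 80.4% over 18 CpGs. The same promoter held both WGBS losses of Grik5, at chr7:25072167-25072249 (7 CpGs, in a UTR, 19.4% against 14.2%) and chr7:25072989-25073103 (4 CpGs, 7.01% against 5.34%). A WGBS loss 1.66 kb before the 5′ end of Grik3 (chr4:125488963-125489121, 4 CpGs) had 45.4% and 34.8%.

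Among the 7 NMDA receptor genes the medians were 4.45% in gains and 27.6% in 5hmC losses. Grin2c (chr11:115249169-115267243) had the highest share in gains at 8.59%, and 60.0% in 5hmC losses. Its gains had 45.6% in Cre- against 55.5% in Tet tcKO. Without subtraction for unconverted cytosines, its 5hmC losses kept 31.0% of the Cre- level, the highest of the receptor genes with a 5hmC loss. Grin2a (chr16:9567898-9995560), which encodes a subunit of many mature NMDA receptors, was the lowest for both at 0.771% and 6.18%, with levels of 68.7% and 80.7% in 14 gains and of 11.7% and 2.28% in 68 5hmC losses, and its promoter held no gain. Grin2b, the subunit typical of early development, had 79 gains on 7.32% of its bases, all outside the promoter, with levels of 62.2% and 78.8%. Its strongest gain was intronic (chr6:135959518-135961063, 35 CpGs, 47.9% against 67.4%). The obligatory subunit gene Grin1 had 3 gains on 1.45% of its bases. In its promoter 5 of 106 CpGs lay in a gain, with 4.18% in Cre- against 8.18% in Tet tcKO.

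The other 3 NMDA genes were unlike each other. Grin2d had 8 gains on 4.45% of its bases, differing by 5.87 percentage points on average, the smallest mean difference of the 33 genes with a gain. A WGBS loss at a UTR exon of Grin2d (chr7:45869757-45870121, 16 CpGs) had 23.4% in Cre- against 14.1% in Tet tcKO. Grin3a (chr4:49661611-49845744) had 6 gains on 1.20% of its bases, and among them the largest difference of any gain at a receptor gene, in an intron (chr4:49728924-49729234, 6 CpGs), from 15.6% in Cre- to 63.8% in Tet tcKO. Grin3b, whose gene is 6.48 kb long, had 62.6% of its locus in 5hmC losses. Its strongest 5hmC loss (chr10:79975534-79977814, 150 CpGs) had 8.26% and 2.73%, and it reached into Tmem259. Other coding genes held 71.2% of the Grin3b locus, 26.0% of that of Grin2d and 25.2% of that of Grin2c, so the shares of these genes were partly those of their neighbours.

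Grid1, which encodes a glutamate receptor family member that acts at synapses as an adhesion partner, was the only delta receptor gene in the set. It is 763.3 kb long and had 63 gains on 3.47% of its bases (57.2% against 73.6%) and 213 5hmC losses on 23.1% (14.8% against 3.51%). Its strongest gain lay 2.71 kb past the 5′ end on a coding exon (chr14:34822465-34823179, 33 CpGs, 12.5% against 21.6%). Its strongest 5hmC loss was intronic (chr14:34896281-34900308, 65 CpGs, 10.4% against 2.38%).

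The 6 metabotropic glutamate receptor genes had medians of 0.863% in gains and 6.24% in 5hmC losses. No promoter of this family held a gain, beside 47.4% of all promoters and 56.6% of those of long genes. Grm4 (chr17:27422387-27521403), a presynaptic receptor, stood apart with 21 gains on 7.56% of its bases (63.9% against 78.3%) and 52 5hmC losses on 63.6% (15.7% against 3.93%). Its strongest 5hmC loss crossed a coding exon (chr17:27433309-27436201, 86 CpGs, 18.5% against 4.30%). Grm5 (chr7:87584168-88134907) was the lowest, with 4 gains on 0.297% of its bases (27.4% against 36.9%) and 25 5hmC losses on 2.62% (11.2% against 2.24%). The longest of these gains lay on a coding exon near the 3′ end (chr7:88129565-88130361, 30 CpGs, 10.1% against 16.8%). Grm2 had 41.1% of its bases in 5hmC losses and 1.86% in gains, with 10.2% of the locus in another coding gene. Grm3 had 3 gains on 0.504% of its bases, all intronic, from 43.8% to 70.4%.

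Grm7 and Grm8, the longest genes of the set with Grid1, had few regions for their length. In their gains the WGBS level rose by 23.8 and 21.3 percentage points, beside 16.1 over all receptor gains. The rise was larger in Grm3 (26.6) and Grin3a (24.4). In the 5hmC losses of Grm7 and Grm8 the 5hmC level changed by -14.85 and -10.40 percentage points, beside -11.29 over all receptor loci. Grm7 is 921.6 kb long and had 19 gains on 0.801% of its bases (47.7% against 71.5%). Its 5hmC losses had 18.2% in Cre- against 3.36% in Tet tcKO. The 5hmC loss with the largest difference at any receptor gene was in an intron of Grm7 (chr6:110777351-110777866, 4 CpGs, 42.2% against 12.1%). The WGBS loss with the largest difference also lay in an intron of Grm7 (chr6:111303219-111303790, 5 CpGs, 70.3% against 38.9%). In Grm8 the strongest gain of the family was intronic (chr6:27808355-27810503, 22 CpGs), with 43.7% in Cre- against 77.4% in Tet tcKO, and its overlapping 5hmC loss had 25.6% and 9.42%. A WGBS loss in another intron of Grm8 (chr6:27507066-27507180, 6 CpGs) had 95.3% and 88.0%.

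The 8 WGBS losses at receptor genes were short and ran against the direction of the 649 gains. They had 4 to 16 CpGs, and 3 of them lay in promoters. The WGBS level fell by 1.68 percentage points in the smallest and fell by 31.4 in the largest. Of the 8, 1 overlapped a 5hmC region, the loss in Grin2d. Those of at most 300 bases and outside UTRs are printed to show the sequence on which they rest, on the strand of the gene and with CpGs in capitals. Each is given with 1 base more than the listed region, which ends on the C of its last CpG, at chr4:125488963-125489122, chr7:25072989-25073104 (minus strand), chr6:27507066-27507181 (minus strand) and chr11:42439332-42439550.
Grik3: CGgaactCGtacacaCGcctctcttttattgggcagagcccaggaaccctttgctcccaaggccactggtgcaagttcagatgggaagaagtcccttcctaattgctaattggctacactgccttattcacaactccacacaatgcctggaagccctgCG
Grik5: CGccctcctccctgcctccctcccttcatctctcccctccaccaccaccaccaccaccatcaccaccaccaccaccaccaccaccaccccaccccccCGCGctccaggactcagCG
Grm8: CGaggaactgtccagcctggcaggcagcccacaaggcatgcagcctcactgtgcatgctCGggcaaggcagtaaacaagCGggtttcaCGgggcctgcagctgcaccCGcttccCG
Gabrb2: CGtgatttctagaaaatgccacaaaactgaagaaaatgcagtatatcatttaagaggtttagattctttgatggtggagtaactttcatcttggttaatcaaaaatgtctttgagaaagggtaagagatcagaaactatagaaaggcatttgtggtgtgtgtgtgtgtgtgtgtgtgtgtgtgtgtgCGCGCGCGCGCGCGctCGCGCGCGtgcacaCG
The sequence of Gabrb2 holds a run of alternating T and G that passes into a run of alternating C and G, with most of its 13 CpGs there, and that of Grik5 a run of repeated CAC.

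The GABA-A alpha subunits, which with beta subunits form the binding site for GABA, had the lowest medians of the set (0.371% in gains and 3.00% in 5hmC losses). Gabra6 (chr11:42306437-42321072), a subunit best known from granule cells of the cerebellum, held no region of either list, and at 14.6 kb with 4.95 CpGs per kb it was a short gene with sparse CpGs. Gabra2 and Gabra4 had 0.494% and 0.248% in gains, and the single gain of Gabra4 covered 4 CpGs of an intron (69.7% against 85.2%). In the promoter of Gabra2 a gain of 8 CpGs had 13.7% and 24.9%.

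Gabra5 (chr7:57407672-57510059) was the exception among the alpha subunits, with 10 gains on 6.73% of its bases and on 30.2% of its CpGs. Most of these CpGs lay in 1 gain of 2.73 kb across its 5′ end (chr7:57508359-57511084, 166 CpGs), which covered 68.1% of the promoter and includes the Gabra5 sequence printed above. The WGBS level there was 11.0% in Cre- against 19.0% in Tet tcKO, and the overlapping 5hmC losses had 9.55% and 2.51%. In the rest of the gene the gains had 57.0% and 79.6% over 57 CpGs. The strongest 5hmC loss of the family crossed a coding exon of Gabra5 (chr7:57416878-57418981, 19 CpGs, 27.4% against 6.16%). An annotated neighbouring gene on the opposite strand covers 84.9% of the Gabra5 locus and part of the 5′ gain, so these values cannot be assigned to either gene.

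The beta, gamma and delta subunit genes had medians of 0.644% in gains and 4.39% in 5hmC losses. Gabrd (chr4:155384980-155398112), whose subunit serves receptors outside synapses, was the highest with 3.80% and 52.8%. It had 2 gains (66.1% against 81.1%) and 10 5hmC losses (16.0% against 3.81%). Its strongest 5hmC loss covered coding exons (chr4:155385437-155388525, 61 CpGs, 17.7% against 4.54%). At the other end, Gabrg1 (chr5:70751047-70842617) had no gain and 4 5hmC losses on 1.58% of its bases (12.7% against 2.08%). Gabrg3 had 19 gains on 1.11% of its bases, the strongest of them 2.49 kb before its 5′ end (chr7:57389268-57390092, 11 CpGs, 39.7% against 73.1%). Gabrb1 had 6 gains on 0.406% of its bases and shared 2 5hmC losses with Gabra4, which lies head to head with it. Gabrb2 had 5 gains on 0.644% of its bases. In its promoter 10 of 110 CpGs lay in gains, with 26.0% in Cre- against 37.9% in Tet tcKO. The WGBS loss of Gabrb2 (chr11:42439332-42439549, 13 CpGs, in an intron) had 93.0% and 78.9%.

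The rho subunits had the highest median coverage of promoters among the GABA-A families, although the promoter of Gabra5 (68.1% in gains) was covered more than those of Gabrr1 (8.60%) and Gabrr3 (28.0%). All 3 rho promoters held gains, beside 47.4% of all promoters. Their median was 28.0% of promoter bases in gains and 66.4% in 5hmC losses, whereas the medians over all genes were 0% and 22.6%. Gabrr2 (chr4:33062999-33095865) had more of its bases in gains than any other receptor gene (19.0%, above 95.0% of all protein-coding genes), with 12 gains that all overlapped a 5hmC loss. The levels in these gains were 64.7% and 81.7%, and those in its 25 5hmC losses 17.4% and 4.43%. In its promoter 70.2% of bases lay in gains, with 66.5% in Cre- against 84.3% in Tet tcKO over 45 CpGs, and the 5hmC level in the promoter losses was 20.8% and 4.77%. The strongest gain of the family followed 3.21 kb past the 5′ end (chr4:33065669-33066745, 29 CpGs, 60.3% against 79.3%). The strongest 5hmC loss crossed a coding exon (chr4:33069001-33072443, 53 CpGs, 23.2% against 6.91%) and overlapped 5 gains.

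In Gabrr3 (chr16:59407332-59464504), 12 gains covered 7.84% of the bases (57.7% against 80.3%) and all of them overlapped a 5hmC loss. A gain that began upstream of the Gabrr3 sequence printed above ended within it, just before the 5′ end (chr16:59406788-59407287, 7 CpGs). Over the whole of this gain the level was 29.4% in Cre- against 54.2% in Tet tcKO. At the other end of the gene, a gain on the 3′ UTR (chr16:59463675-59464287, 11 CpGs) had 23.2% and 71.2%. Gabrr1 (chr4:33132521-33163588) was the lowest of the family, with 6 gains on 6.34% of its bases (56.2% against 68.5%) and 17 5hmC losses on 29.0% (12.6% against 2.95%). The gain across its 5′ end (chr4:33132394-33132636, 12 CpGs) had 69.9% and 79.5%, and the 5hmC loss there 16.6% and 3.99%. A lower level was seen in a coding exon 14.6 kb into Gabrr1 (chr4:33146679-33147526, 25 CpGs, 19.5% against 37.6%).

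**Figure D4:**
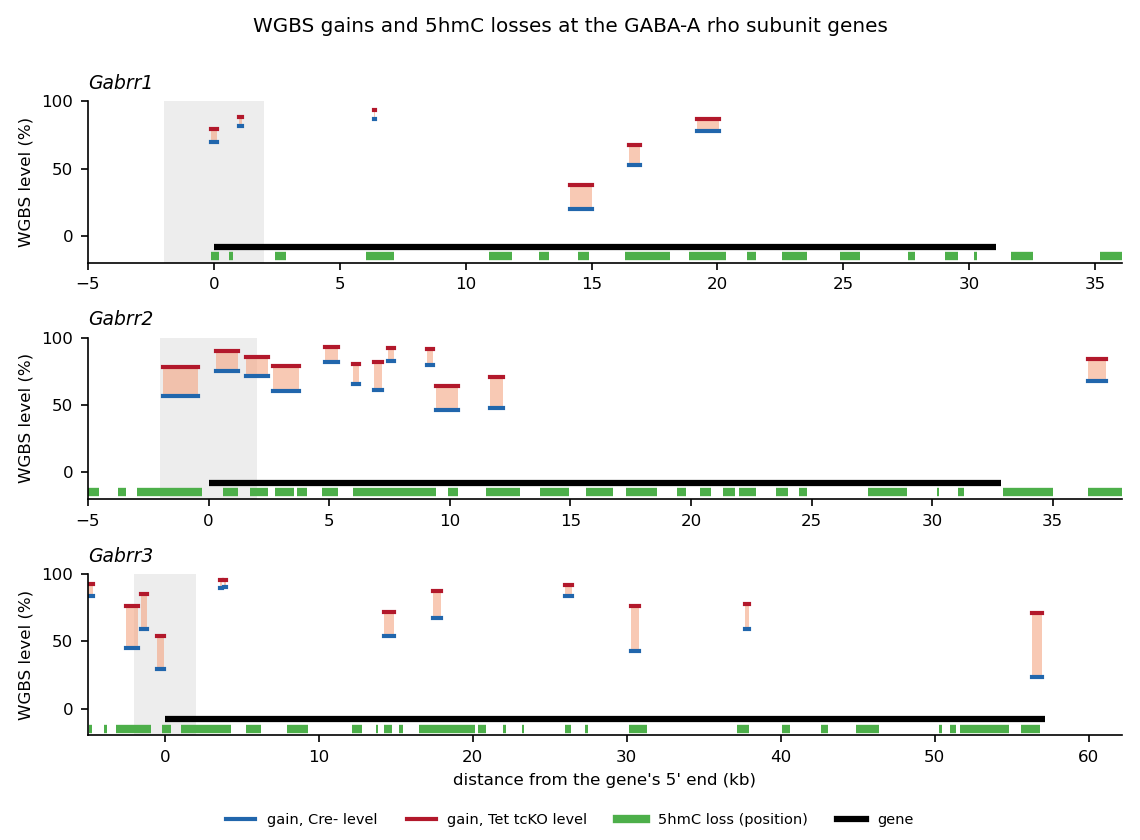
WGBS gains and 5hmC losses along Gabrr1, Gabrr2 and Gabrr3 by distance from the 5′ end in kb, with the WGBS level (%) of each gain in Cre- (blue) and Tet tcKO (red), the position of 5hmC losses (green), the gene (black) and the promoter window shaded. In Gabrr2 the gains crowd around the 5′ end, and in Gabrr3 the last gain, on the 3′ UTR, has the largest difference of the family, from 23.2% to 71.2%.

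The GABA-B receptor genes form an obligate pair, Gabbr1 binding GABA and Gabbr2 coupling to the G protein. Gabbr2 (chr4:46662305-46991873) had 83 gains on 11.7% of its bases (62.1% against 77.8%) and 176 5hmC losses on 52.9% (16.0% against 4.04%), and no gain in the promoter. Its strongest gain (chr4:46883332-46884790, 27 CpGs, 39.6% against 69.4%) and strongest 5hmC loss (chr4:46687656-46692186, 84 CpGs, 18.1% against 3.94%) were both intronic. Gabbr1 (chr17:37045966-37075067) had 6 gains on 3.69% of its bases (74.5% against 85.6%) and 13 5hmC losses on 35.6% (14.7% against 3.11%).

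Without subtraction for unconverted cytosines, the share of 5hmC kept varied less between genes than the coverage did. Over the 34 genes with a 5hmC loss it had a median of 21.4% and ran from 15.1% (Gabra2) to 31.0% (Grin2c). It was higher in genes more covered by 5hmC losses, with a median of 25.1% in the 17 genes with at least 20% of bases covered and 19.2% in the other 17, and the ranges of these groups overlapped (21.1% to 31.0% and 15.1% to 25.0%). Across the 34 genes the share kept had a Spearman correlation of 0.856 with the coverage and of 0.871 with CpGs per kb. The Tet tcKO levels behind these shares lay near the background, which the paper puts at about 2% of unmodified cytosines. In Gabra2 and Gria4 they lay below it (1.63% in Gria4). The range of the share kept and its relation to coverage therefore depend on this background, and subtraction per gene was not tested.

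**Figure D5:**
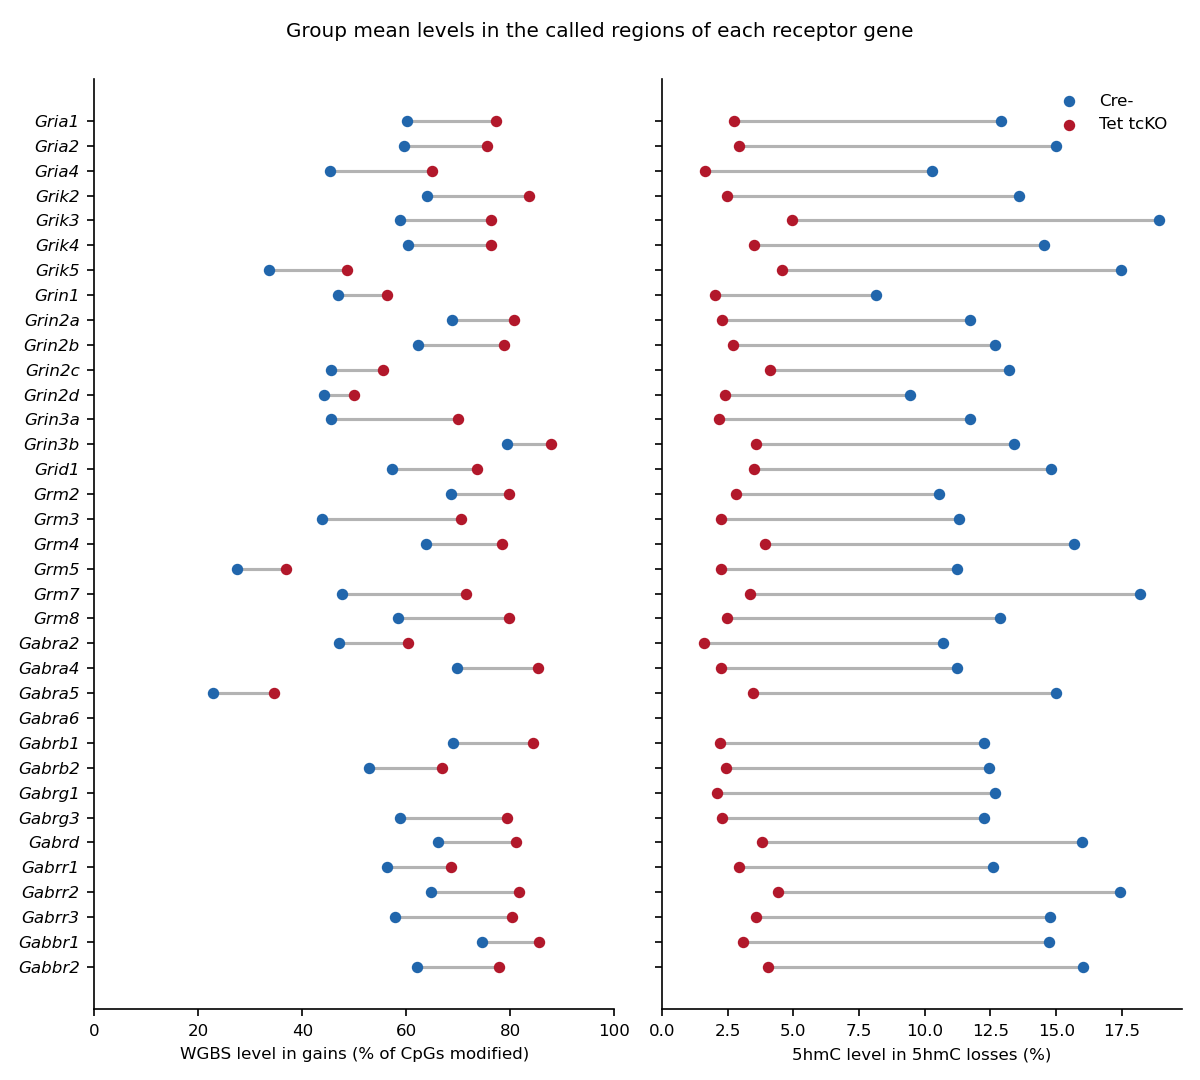
Mean WGBS level in the gains (left) and mean 5hmC level in the 5hmC losses (right) of each receptor gene, in percent and weighted by CpGs, in Cre- (blue) and Tet tcKO (red), without error bars because the lists hold 1 mean per group. In the gains Gabra5 starts lowest in Cre- (22.8%) and Grin3b highest (79.3%), and 5hmC in the right panel lies at or below 4.96% in Tet tcKO in all 34 genes with a 5hmC loss.

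Genes that make, move or anchor glutamate and GABA or their receptors were taken as the rest of the pathway. All 26 had a gain, 21 had one in the promoter and 2 had a WGBS loss, beside 76.8%, 47.4% and 4.90% of all protein-coding genes. Their median was 8.50% of bases in gains and 37.0% in 5hmC losses, beside 1.87% and 17.3% for the receptors, and the difference was not tested. They had 11.7 CpGs per kb at the median and the receptors 7.56. The scaffold gene Dlg4 (29.8%), the glutamine synthetase gene Glul (29.3%), the vesicular glutamate transporter gene Slc17a7 (24.5%) and the glutamate transporter genes Slc1a7 (21.6%) and Slc1a3 (16.0%) had high shares of bases in gains. The lowest shares were those of the gephyrin gene Gphn (0.222%), of the vesicular transporter genes Slc17a6 (0.487%) and Slc32a1 (0.981%) and of the GABA synthesis gene Gad2 (2.54%).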

How the data were processed

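Genomic DNA of P21 retinas was profiled by WGBS and bACE-seq in 3 Cre- and 3 Tet tcKO libraries per assay, grouped by their labels. In the authors' pipeline, TrimGalore (0.4.4 in the submitters' processing notes) was used for trimming and Bismark (0.18.2) for alignment to mm10. They kept mapping qualities of at least 10, removed duplicates with Picard, extracted CpG levels with MethylDackel (0.6.1) and called DMRs with DSS (2.48.0) after smoothing, from CpGs with p under 0.01, in regions of at least 3 CpGs and 50 bp. Smoothing and this minimum favour dense CpGs and blur region ends.

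The deposited means are given as a fraction and printed as percent. Their order follows the names of the lists. The deposited difference and area statistic, a score that sums the test statistic over a region, hold the authors' comparison: the difference was not used, and the score served only to rank the regions named. Depth, coverage and replicate spread were not analysed here, so no interval or test was computed.

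Regions were joined to GENCODE M21 genes (5 kb flank, overlap of at least 1 bp; promoter 2 kb each side of the 5′ end) with Python (3.11.15), numpy (2.4.6) and pandas (2.3.3), checked on simulated intervals. In all 193836 WGBS and 592906 bACE-seq regions both ends fell on a CpG of the reference. Levels over several regions were weighted by CpGs. Named regions were, per family, the gain and the 5hmC loss of largest score, and besides them all WGBS losses, 5hmC gains and gains over a 5′ end. The gain of largest score in the kainate family is not reported here. Genes given in full were those highest and lowest in gains per family. Other regions of extreme level were picked after their values were seen. The genes, lists and rules were chosen with earlier results of these data known. Alternatives were stricter regions, other flanks, windows and start sites, CpG shares, unweighted means, subtraction of 1 or 2 percentage points of 5hmC and a stricter overlap.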

Additional observations from a re-analysis of the deposited data

How the results depend on the processing

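Of 76 alternative values for 13 results, 48 stayed within 1.5 times the reported value. Regions were sorted by the sign of their own difference, so no alternative could turn a direction. No paired analysis was possible because the lists hold 1 mean per group and no value per replicate, and for the same reason no replicate was left out. With regions of at least 10 CpGs, 2 genes had a WGBS loss, the loci held 222 gains and 781 5hmC losses, the median shares were 0.735% and 8.46%, and 11 promoters had a gain. With differences of at least 0.1, 3 genes had a WGBS loss, the loci held 1069 5hmC losses, and the median shares were 1.12% and 10.6%. With differences of at least 0.2, 1 gene had a WGBS loss, 21 a 5hmC loss and 0 a 5hmC gain. The loci then held 150 gains and 56 5hmC losses, with median shares of 0.409% and 0.0974%. A gain lay in 7 promoters and a 5hmC loss in 3, the mean rise was 26.7 percentage points, and 5.33% of gains overlapped a 5hmC loss. A flank of 20 kb gave a median share in gains of 3.06%. Shares of CpGs were 5.45% and 34.1%. Within 1 kb of the 5′ end, 12 promoters had a gain and 16 a 5hmC loss. Subtracting 2 percentage points for unconverted cytosines left 11.8% of 5hmC. Without Grin2c, Grin2d, Grin3b and Gabra5, a choice made after seeing the data, the median share in 5hmC losses was 10.5%. Depth was not analysed here, so the absence of a region does not show an unchanged level.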
